A study of Mus musculus with 16 samples.

Results

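The complement genes C3, C2, C4b, Cfb, Cfi, Cfp, C1ra, C1s1 and Cd55 were followed across libraries of mouse pancreatic tumour cells with different amounts of Ly6d. They were matched by gene name in a table of counts and by gene identifier in a table of TPM (transcript abundance scaled by gene length and library), and all 9 were found among the 54532 genes of each table. The study asked how Ly6d, a lipid-anchored surface protein, bears on the start and growth of pancreatic cancer. Its tumours grew in the pancreas from KPC1199, a cell line from a genetic mouse model of pancreatic cancer.

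Of 16 labelled samples, 8 were tumour tissue, left out here as far as names allow, and 8 were KPC1199 cells sorted from such tumours. The sorted samples form 4 groups of 2: WT, Ly6d overexpression, Ly6d-high and Ly6d-low cells. The labels name WT and overexpression by Ly6d only, and the high and low groups were separated by their Ly6d level. The sources used here do not give the promoter behind the overexpression, the number of clones, the host mice, their age or any pooling. The 2 overexpression columns carry a library name (m3) that the labels use for overexpression tumour tissue, whereas the sorted overexpression samples are titled OE. Their place in the sorted group is thus an inference, and the names cannot tell whether these columns hold sorted cells or tumour tissue. The WT column names begin the titles of the sorted WT samples and also occur inside titles of WT tumour tissue. Nothing states that samples of a group came from separate mice, so p-values measure only the spread between these samples.

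Complement is a cascade of plasma and membrane proteins that tags cells and particles for removal. C1, with its proteases C1r and C1s, cleaves C4 and C2 in the classical pathway, factor B forms the convertase of the alternative pathway, and properdin stabilises it. Both routes cleave C3, the central component. Factor I and CD55 restrain the cascade. Liver cells make most plasma complement, while epithelial cells, fibroblasts and macrophages also make components locally.

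C3 and C1s1 were among the genes higher in Ly6d-high cells, so the 250 bases before their RefSeq starts are printed, beside those of C1ra, which lies next to C1s1. Promoter sequences from RefSeq (GRCm38.p6) were matched for 5 of the 9 genes. Capitals mark matches, on either strand, to an NF-kB pattern (GGG and CC with 5 bases of any kind between them) and to the C/EBP pattern TTGCNNAA, and overlapping matches run together. The C3 stretch is chr17:57228137-57228386, that of C1s1 is chr6:124542360-124542609 (the upstream of its 2 listed starts), both on the minus strand, and that of C1ra is chr6:124512371-124512620 on the plus strand. The files list the C1ra gene from 124512405, so most of the C1ra stretch lies inside the listed gene.
C3: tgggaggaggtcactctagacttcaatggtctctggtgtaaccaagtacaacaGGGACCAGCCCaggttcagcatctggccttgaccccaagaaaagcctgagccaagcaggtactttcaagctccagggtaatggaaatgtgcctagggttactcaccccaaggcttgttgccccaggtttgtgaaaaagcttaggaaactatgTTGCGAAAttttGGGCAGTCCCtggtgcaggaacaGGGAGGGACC
C1s1: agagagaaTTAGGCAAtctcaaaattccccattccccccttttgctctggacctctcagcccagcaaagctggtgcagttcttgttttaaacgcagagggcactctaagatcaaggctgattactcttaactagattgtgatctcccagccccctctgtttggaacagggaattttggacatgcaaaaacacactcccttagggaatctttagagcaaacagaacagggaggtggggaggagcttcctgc
C1ra: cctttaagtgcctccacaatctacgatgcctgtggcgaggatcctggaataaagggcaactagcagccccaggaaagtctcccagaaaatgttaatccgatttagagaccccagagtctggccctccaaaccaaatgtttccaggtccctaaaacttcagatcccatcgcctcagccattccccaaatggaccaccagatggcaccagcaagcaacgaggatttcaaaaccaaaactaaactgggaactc
Counted so that -1 is the base before the start, the C3 stretch held TTGCGAAA from -45 to -38 and GGGCAGTCCC from -33 to -24, beside 3 further NF-kB matches. The C1s1 stretch held TTAGGCAA from -242 to -235 and no NF-kB match. The stretch before the other listed C1s1 start, not printed, held an NF-kB match (GGCCACTCCC, from -35 to -26) and no C/EBP match. The C1ra stretch held neither pattern. The stretches before Cd55 and Cfp, also not printed, held NF-kB matches and no C/EBP match. Neither of these genes was called between Ly6d-high and Ly6d-low with limma. Of 32817 promoters cut to the same length, 45.8% held the NF-kB pattern and 9.57% the C/EBP pattern, so a match of the first kind is common. The patterns TTCNNNGAA (STAT), GAAA and GAAA with 2 bases of any kind between them (interferon response) and TGANTCA (AP-1), found in 7.01%, 2.97% and 6.75% of promoters, had no match in any of these stretches.

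Totals ran from 15449241 to 18290325 counts in WT and overexpression libraries and from 15063975 to 20509539 reads, recovered from TPM, in Ly6d-high and Ly6d-low libraries. Ly6d was at 1260 and 1066 CPM (counts scaled to library size) in WT and at 3380 and 3423 CPM in overexpression libraries. It was at 697 and 504 TPM in Ly6d-high and at 1.56 and 0.352 TPM in Ly6d-low libraries. All 10 epithelial markers were detected in every library. At an adjusted p under 0.05, 656 of 15771 genes were called between overexpression and WT (edgeR), and 1435 of 14625 between Ly6d-high and Ly6d-low (limma). Those counts were 1584 without overexpression replicate 1 and 1062 without overexpression replicate 2. They were 6710 without Ly6d-high replicate 1 and 931 without Ly6d-low replicate 1.

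Per base of gene length, C3 was the most abundant of the 9 genes in WT, overexpression and Ly6d-high libraries, but ranked 4 in Ly6d-low libraries. In WT it was at 140.5 ± 9.25 RPKM (CPM per kilobase of gene length; SD, n = 2), followed by C1ra, C1s1, C4b, Cd55, Cfi, Cfb, Cfp and C2 at 0.862 ± 0.132 RPKM. The order was the same with overexpression, where the ranges of Cfb and Cfp overlapped. In no other pair of neighbours in these 2 groups did they. In Ly6d-high cells C3 was at 243 ± 25.6 TPM and the order was C3, Cfi, C1ra, Cd55, C1s1, C4b, Cfp, Cfb, C2. Here C1s1 and C4b, Cfp and Cfb, and Cfb and C2 overlapped. In Ly6d-low cells Cfi led at 50.03 ± 0.437 TPM, ahead of C1ra, Cd55 and C3 at 21.1 ± 0.894 TPM, with no overlap between neighbours. C3 took 56.5% and 60.9% of the summed level of the 9 genes in WT libraries and 59.2% and 60.2% in overexpression libraries. It took 46.5% and 44.3% in Ly6d-high and 11.9% and 12.4% in Ly6d-low libraries. No test was made between RPKM and TPM, since each table had its own normalization.

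**Figure D1:**
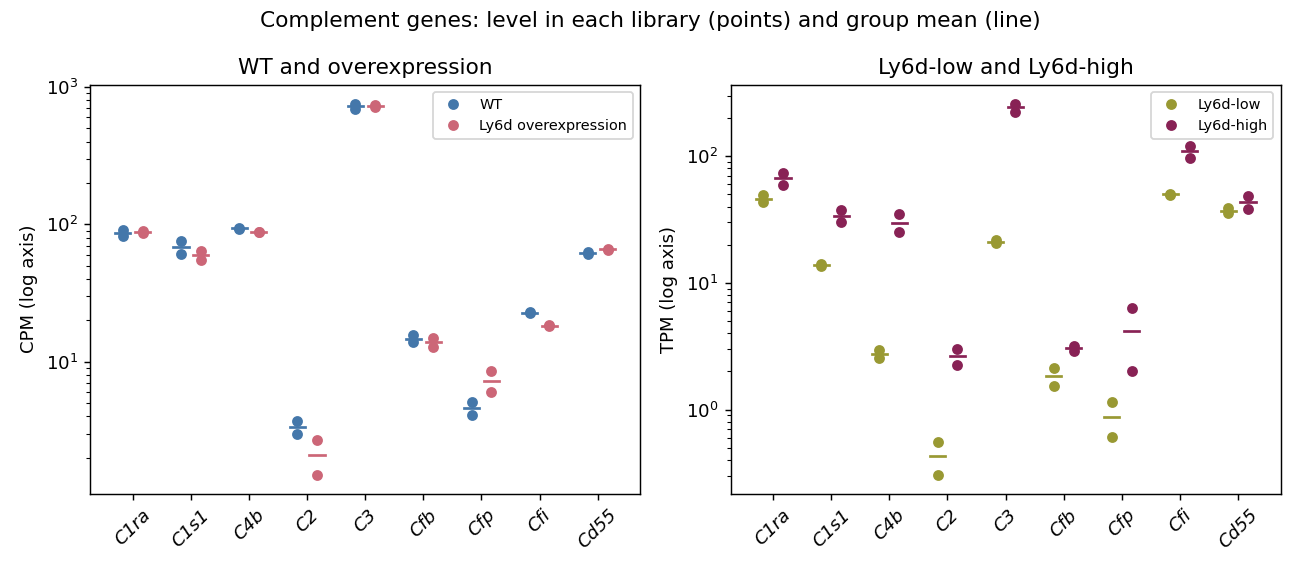
Level of each complement gene in every library, in CPM for WT and overexpression (left) and in TPM for Ly6d-low and Ly6d-high (right), both on log axes; points are libraries and short lines are means of 2. C3 lies between 689 and 756 CPM on the left, while on the right it goes from 20.5 and 21.7 to 225 and 261 TPM.

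Parts of these genes resemble other genes, which limits how far reads can be assigned. In GENCODE transcripts, 48.0% of the 50-base stretches of C1ra also occurred in C1rb, 34.6% of those of C4b in C4a, 21.8% of those of C1s1 in C1s2, and 8.0% of those of Cd55 in Cd55b. The copies had few counts: C4a had 30 and 21 in WT, 7 or fewer in each other library, C1rb had 11 or fewer, C1s2 16 or fewer and Cd55b 2 or fewer. The predicted gene Gm20547 shares 79.5% of the exon bases of Cfb and 42.8% of those of C2 on the same strand, and it was listed at 0 in all 8 libraries. The sources used here do not say how reads in shared exons were assigned, so the levels of Cfb and C2 are uncertain. C3, Cfi and Cfp shared no such stretch and no exon base with another gene.

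The comparison of overexpression with WT asked what added Ly6d changed in these cells. None of the 9 complement genes passed the threshold with edgeR's quasi-likelihood test, or with DESeq2, against 4.16% of all genes with edgeR. At an unadjusted p under 0.05, 1 gene (Cfi) passed, against 17.3% of all genes. The median log2 fold change of the 9 was -0.11, against -0.0012 over all genes. C3 was at 689 and 756 CPM in WT and at 719 and 735 CPM in overexpression libraries, where the second pair lies within the first. Its log2 fold change was -0.01 ± 0.07 (SE; 95% confidence interval -0.17 to 0.15; edgeR adjusted p = 0.967). A p that misses the threshold does not show equal levels, but the interval holds no change of C3 beyond those bounds.

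Among the classical pathway genes, C1ra was at 90.9 and 81.6 CPM in WT and 89.1 and 86.9 CPM with overexpression. Its partner protease C1s1 was at 75.5 and 60.4 CPM against 64.4 and 55.3 CPM. C4b, whose product forms part of the classical C3 convertase, was at 92.3 and 94.4 CPM against 87.1 and 87.7 CPM. The C1ra and C1s1 groups overlapped, and those of C4b did not. The log2 fold changes were 0.01 ± 0.08, -0.20 ± 0.12 and -0.11 ± 0.08 (SE). C2, which supplies the protease of that convertase, rested on 67 and 46 counts in WT and 49 and 27 with overexpression. Its interval was wide, from -1.73 to 0.34, around a log2 fold change of -0.69.

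Of the alternative pathway genes, Cfb, the protease subunit of its convertase, was at 15.6 and 13.9 CPM in WT and 12.8 and 14.9 CPM with overexpression, with overlapping groups. Cfp, which encodes properdin and is known mainly from leukocytes, was at 5.14 and 4.08 CPM against 6.07 and 8.50 CPM (log2 fold change 0.64 ± 0.30, edgeR adjusted p = 0.309). The summed level of 5 pan-leukocyte markers was 17.9 and 14.95 CPM in WT and 63.6 and 67.0 CPM with overexpression, with all 5 past the threshold, and its part in the Cfp values was not tested. Of the other marker lists, neutrophil markers summed to 55.8 and 55.7 CPM in WT and 163 and 170.4 CPM with overexpression, and plasma and B cell markers to 7.62 and 6.08 against 82.9 and 82.4 CPM. Most of the neutrophil sum in WT was Ltf, which overlapped between groups (51.63 and 51.85 against 50.35 and 54.83 CPM). Of 8 neutrophil markers tested, 5 were higher with overexpression and 0 lower, among them S100a9 (0.773 and 0.647 against 33.8 and 38.8 CPM). Acinar markers went from 16701 and 16858 to 1254 and 1361 CPM, with 8 of 8 lower, and endothelial markers from 277 and 275 to 133 and 155 CPM. Epithelial (12974 and 12599 against 13311 and 13965 CPM), fibroblast (5276 and 5855 against 6285 and 6253 CPM), mesothelial (551 and 577 against 555 and 564 CPM) and hepatocyte sums (45.1 and 41.6 against 34.2 and 37.6 CPM) differed less. Most of the mesothelial sum was Msln (515 and 533 against 518 and 534 CPM). Less RNA per cell and fewer cells of a type cannot be told apart in these bulk libraries. Of the regulators, Cfi, which cleaves C3b and C4b with cofactors, was at 22.9 and 22.7 CPM in WT and 18.4 and 18.1 CPM with overexpression. These groups did not overlap, but the change of -0.34 ± 0.15 did not pass the threshold (edgeR adjusted p = 0.270). Cd55, a membrane protein that speeds the decay of convertases, was at 60.5 and 62.5 CPM against 66.4 and 65.4 CPM (0.08 ± 0.09, adjusted p = 0.724). In all, 2 genes (Cfp, Cd55) had both overexpression libraries above both WT libraries and 3 (C2, C4b, Cfi) had them below, against 26.3% and 21.7% of all genes.

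The comparison of Ly6d-high with Ly6d-low cells asked what set cells with much Ly6d apart. Here 5 of the 9 genes rose (C3, C4b, C2, C1s1 and Cfi) and 0 fell, at an adjusted p under 0.05 with limma on log2(TPM + 1). Of the 5, C2 lay under 1 TPM in both Ly6d-low libraries and passed the filter only through the Ly6d-high libraries. Of all genes, 9.81% were called, 8.64% higher and 1.17% lower. At an unadjusted p under 0.05, 8 of the 9 passed, against 30.8% of all genes. The calls over all genes split into 1264 higher and 171 lower, but into 702 and 246 with TMM factors, 1224 and 591 with edgeR on recovered reads and 940 and 607 with DESeq2 on them. The members' count was 5 higher and 0 lower also with edgeR and with DESeq2 on recovered reads and with TMM factors on TPM. With no filter on low values it was 4, without C2. It varied too when 1 library was left out, as did the calls over all genes. The median difference of the 9 genes was 1.23 against 0.25 over all genes. The median over all genes, a shift that most genes shared, fell to 0.007 with TMM factors. All but Cd55 had both Ly6d-high libraries above both Ly6d-low libraries, against 54.4% of all genes, and 0 had them below, against 10.4%.

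**Figure D2:**
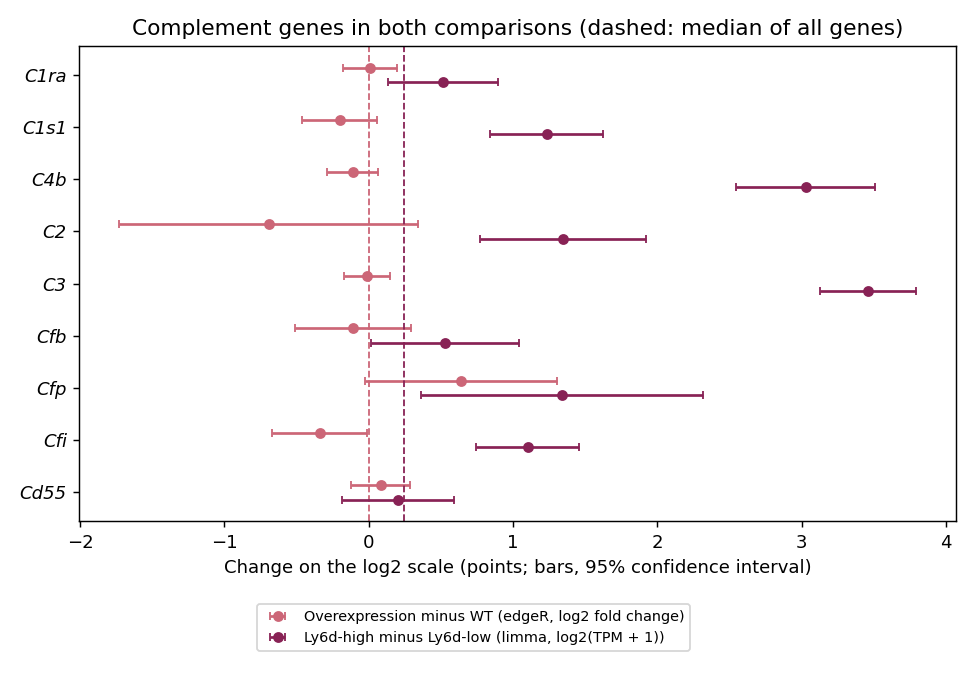
Change of each complement gene on the log2 scale in both comparisons; points are estimates, bars 95% confidence intervals, and dashed lines the median of all genes tested. With overexpression the estimates lie between -0.69 and 0.64, while Ly6d-high minus Ly6d-low reaches 3.03 for C4b and 3.46 for C3.

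C3 was at 225 and 261 TPM in Ly6d-high libraries (9260 and 8917 reads) and at 20.5 and 21.7 TPM in Ly6d-low libraries (636 and 854 reads). The libraries of each group lay close together and far from those of the other. The means differed 11.5-fold, or by 3.46 ± 0.14 (SE) in log2(TPM + 1) (limma adjusted p = 2.66e-05), which is 3.21 above the median of all genes. On recovered reads edgeR gave 3.22 ± 0.10 (adjusted p = 7.33e-06). Over all alternatives the difference lay between 3.19 and 3.57, always past the threshold. The C3 gene (ENSMUSG00000024164) lies at chr17:57203970-57228136 in GRCm38, on the minus strand.

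C4b (ENSMUSG00000073418, chr17:34728380-34743882) changed by about as much. It was at 25.2 and 34.7 TPM in Ly6d-high and 2.94 and 2.57 TPM in Ly6d-low libraries, a 10.9-fold difference of means. In log2(TPM + 1) the groups lay 3.03 ± 0.20 apart (limma adjusted p = 0.000196), and edgeR on recovered reads gave 3.14 ± 0.15 (adjusted p = 5.22e-05). The ratio of C4b to C3, per length, was 0.112 and 0.133 in Ly6d-high and 0.143 and 0.118 in Ly6d-low libraries, so these ranges overlapped. In WT it was 0.121 and 0.113, and with overexpression 0.110 and 0.108. C4b, Cfb and C2 lie within one stretch of chromosome 17 with C4a, and 85 bases separate Cfb (34856374 to 34862518) from C2 (34862604 to 34898265).

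C2 (ENSMUSG00000024371) rested on few reads, 70 and 78 in Ly6d-high and 13 and 9 in Ly6d-low libraries. This gave 2.25 and 3.03 against 0.556 and 0.304 TPM and a difference of 1.35 ± 0.24 (limma adjusted p = 0.0164). On recovered reads, where TMM was applied and 1 TPM was not added, edgeR gave 2.34 ± 0.39 (adjusted p = 0.0108). The call was lost with no filter on low values (adjusted p = 0.0835), and the gene was not tested without either Ly6d-high library, since it then fell under the filter. Its neighbour Cfb (ENSMUSG00000090231) was at 2.91 and 3.19 TPM in Ly6d-high and 1.52 and 2.13 TPM in Ly6d-low libraries, from 66 and 60 against 26 and 46 reads. The groups did not overlap, but the difference of 0.53 ± 0.22 missed the threshold (limma adjusted p = 0.154, interval 0.02 to 1.04). Cfb thus stood at 0.0130 and 0.0123 of the C3 level in Ly6d-high and at 0.0744 and 0.0981 of it in Ly6d-low libraries. These ratios are uncertain, since Gm20547 shares 79.5% of the Cfb exon bases and the assignment of such reads is unknown here.

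The C1 proteases are neighbours on chromosome 6 and point towards each other, C1ra (ENSMUSG00000055172, 124512405 to 124523443) on the plus and C1s1 (ENSMUSG00000038521, 124530345 to 124542359) on the minus strand. C1s1 was at 30.5 and 37.5 TPM in Ly6d-high and 14.2 and 13.5 TPM in Ly6d-low libraries, with a difference of 1.23 ± 0.17 (limma adjusted p = 0.00474), or 0.997 ± 0.12 with edgeR on recovered reads (adjusted p = 0.00278). C1ra was at 59.5 and 74.3 TPM against 43.5 and 49.1 TPM, and its difference of 0.52 ± 0.16 missed the threshold (limma adjusted p = 0.0912). Without Ly6d-high replicate 1 the C1ra difference was 0.67, whereas edgeR on recovered reads of all libraries put the change at 0.23 ± 0.10 (adjusted p = 0.193). The ratio of C1s1 to C1ra, per length, was 0.512 and 0.504 in Ly6d-high and 0.326 and 0.274 in Ly6d-low libraries, with no overlap. In WT it was 0.792 and 0.705, and with overexpression 0.688 and 0.607. The antisense gene Gm16567 overlaps 18.4% of the C1s1 exon bases and Gm16083 overlaps 2.1% of those of Cd55, and the strand setting of the counting is unknown here.

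Of the regulators, Cfi (ENSMUSG00000058952, chr3:129835884-129875332) rose and Cd55 (ENSMUSG00000026399, chr1:130439027-130462744) did not pass the threshold. Cfi was at 97.1 and 121 TPM in Ly6d-high and 49.7 and 50.3 TPM in Ly6d-low libraries (1.10 ± 0.15, limma adjusted p = 0.00518), and edgeR on recovered reads gave 0.82 ± 0.10 (adjusted p = 0.00319). Its level was 0.433 and 0.465 of that of C3 in Ly6d-high and 2.43 and 2.32 times that of C3 in Ly6d-low libraries. In Ly6d-low cells the inhibitor was thus the more abundant of the pair per length, and in Ly6d-high cells C3 was. Cd55 was at 38.4 and 48.1 TPM against 38.8 and 35.7 TPM, with overlapping groups. Its difference of 0.20 ± 0.16 (limma adjusted p = 0.419, interval -0.18 to 0.59) turned to -0.07 with TMM factors and to -0.09 with edgeR on recovered reads. Without Ly6d-high replicate 1 the Cd55 difference was 0.36.

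Properdin differed between the Ly6d-high libraries themselves. Cfp (ENSMUSG00000001128, chrX:20925454-20931555) was at 2.01 and 6.32 TPM there, from 28 and 73 reads, and at 1.14 and 0.603 TPM in Ly6d-low libraries, from 12 and 8 reads. The groups did not overlap, yet the difference of 1.34 ± 0.41 missed the threshold (limma adjusted p = 0.0879), and edgeR on recovered reads gave 1.92 ± 0.62 (adjusted p = 0.0893). Without Ly6d-high replicate 1 the limma difference was 1.98, and without Ly6d-low replicate 1 it was 1.55. Without Ly6d-high replicate 2 it was 0.70.

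**Figure D3:**
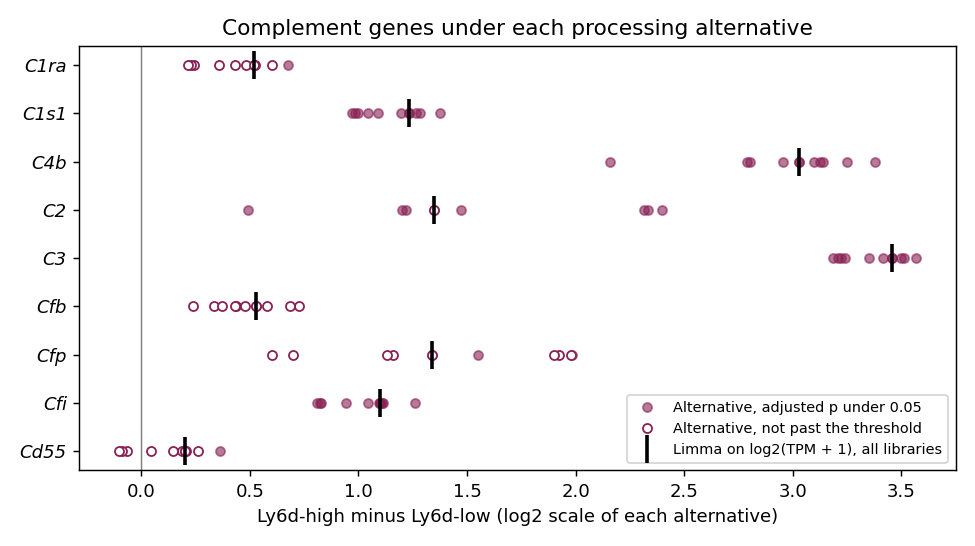
Ly6d-high minus Ly6d-low for each complement gene under every processing alternative, each on its own log2 scale; filled points passed an adjusted p of 0.05, open points did not, and black marks are the values with limma on log2(TPM + 1). C3, C4b, C1s1 and Cfi are filled throughout, while Cd55 lies on both sides of 0.

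Markers of other cell types moved in the same libraries. The sum of 10 macrophage markers was 798 and 849 TPM in Ly6d-high and 269 and 275 TPM in Ly6d-low libraries, most of it Cd14 (639 and 697 against 204 and 211 TPM), and 4 of 7 tested were higher. Lyz2 was at 90.8 and 84.9 against 10.1 and 11.8 TPM, whereas Mrc1 overlapped (8.55 and 10.7 against 8.73 and 9.22 TPM). The defining macrophage genes Csf1r (1.12 and 1.79 against 0.373 and 0.214 TPM) and Adgre1 (at most 0.616 TPM) were low in all 4 libraries. Csf1r and Ms4a7 passed the filter of 1 TPM only through the Ly6d-high libraries. The pan-leukocyte gene Ptprc was at most 0.172 TPM, and 5 pan-leukocyte markers summed to 24.2 and 28.3 against 13.8 and 15.8 TPM. Most of the pan-leukocyte sum was Cd53 (17.83 and 22.44 against 11.97 and 13.15 TPM). The sum of 10 fibroblast markers was 433 and 509 TPM in Ly6d-high and 413 and 419 TPM in Ly6d-low libraries, and 0 of 10 passed the limma threshold. The sum of 12 hepatocyte markers was 168 and 160 against 48.3 and 48.8 TPM, with 6 of 8 tested higher. The albumin gene Alb was at 7.24 and 8.54 TPM against 0.353 and 0.335 TPM, and Serpina1a was at 0. Alb, Fga, Fgb and Fgg lay under 1 TPM in both Ly6d-low libraries and passed the filter only through the Ly6d-high libraries. Apoa1 went the other way (27.5 and 25.7 against 34.55 and 37.8 TPM). Epithelial markers summed to 40915 and 40419 against 56572 and 57767 TPM, with 2 of 10 higher and 4 lower. Plasma and B cell markers summed to 89.4 and 76.0 against 2.90 and 1.20 TPM, and neutrophil markers to 173 and 208 against 67.9 and 70.1 TPM. Most of the neutrophil sum was Ltf (155.5 and 193.3 against 59.72 and 61.45 TPM). S100a8 was under 1 TPM and Camp at 0 in all 4 libraries, and Retnlg went the other way (0 and 0 against 1.116 and 0.441 TPM). Endothelial markers summed to 87.1 and 115 against 66.2 and 71.6 TPM, and mesothelial markers to 855 and 1031 against 955 and 991 TPM. Nearly all of the mesothelial sum was Msln (853 and 1027 against 953 and 987 TPM). Acinar markers summed to 12469 and 10988 TPM in Ly6d-high and 4725 and 4851 TPM in Ly6d-low libraries. The part of these cell types in the complement differences was not tested.

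The rest of the pathway was followed through a list of further complement genes, of which 50 were in the tables. With overexpression 27 of them were tested, and 7 rose and 1 fell (edgeR; 2.32% and 1.84% of all genes). Between Ly6d-high and Ly6d-low cells 21 were tested, and 9 rose and 1 fell (limma; 8.64% and 1.17% of all genes). Median changes were 0.36 and 0.53. Of the genes that rose, Itgax with overexpression and Itgb2 in Ly6d-high cells lay under the low-value filter in both libraries of the lower group.

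The 3 genes of C1q, the recognition part of C1 and a product mainly of macrophages, rose in both comparisons. C1qa was at 4.69 and 5.11 CPM in WT and at 22.0 and 22.3 CPM with overexpression (log2 fold change 2.16 ± 0.19, edgeR adjusted p = 5.02e-05). It was at 17.03 and 13.9 TPM in Ly6d-high and 1.59 and 1.64 TPM in Ly6d-low cells (2.65 ± 0.19, limma adjusted p = 0.000265). C1qb and C1qc changed by 2.20 and 2.29 with overexpression and by 2.60 and 2.56 between Ly6d-high and Ly6d-low. On recovered reads edgeR gave 2.97 for C1qa, 2.58 for C1qb and 2.94 for C1qc between Ly6d-high and Ly6d-low (adjusted p = 0.00226, 0.00679 and 0.00118). C1qb lost its call in the second comparison with no filter on low values (adjusted p = 0.0567). Neither C1ra nor C1s1 passed the threshold with overexpression, and of these proteases C1s1 rose between Ly6d-high and Ly6d-low. Macrophage markers summed to 172 and 166 CPM in WT and to 306 and 313 CPM with overexpression, where 3 of 10 were higher, and their part was not tested.

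With overexpression 3 of the 7 receptor genes tested rose (C5ar1, Itgax and Itgb2), the other 4 did not pass the threshold, and Cfd rose. The C5a receptor gene C5ar1 was at 1.27 and 0.647 CPM in WT and 6.51 and 7.55 CPM with overexpression. Itgax, an integrin chain of a C3 fragment receptor, was at 0.166 and 0.194 against 4.81 and 3.61 CPM. It rested on 3 and 3 counts in WT and on 88 and 65 with overexpression. It passed the low-count filter only through the overexpression libraries. Its partner chain Itgb2 was at 4.36 and 2.98 against 11.2 and 11.8 CPM. Their log2 fold changes were 2.83 ± 0.42, 4.48 ± 0.64 and 1.62 ± 0.27 (SE; edgeR adjusted p = 0.00298, 0.0021 and 0.00572). All 3 are leukocyte genes, and the pan-leukocyte markers were higher in the same libraries, whose part was not tested. Cfd, the protease that activates factor B, went from 12.0 and 10.1 to 22.9 and 22.9 CPM (log2 fold change 1.03 ± 0.17, edgeR adjusted p = 0.00553). Between Ly6d-high and Ly6d-low, Itgb2 was higher (1.13 ± 0.25, limma adjusted p = 0.0342), and edgeR on recovered reads gave 1.76 ± 0.38 (adjusted p = 0.0267). This call was lost without Ly6d-low replicate 2 (adjusted p = 0.0666), with TMM factors (adjusted p = 0.0587), with DESeq2 on recovered reads (adjusted p = 0.0669) and with no filter on low values (adjusted p = 0.130).

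Of the soluble regulators, Serping1, the inhibitor of C1r and C1s, was higher in Ly6d-high than in Ly6d-low cells. It was at 24.3 and 28.5 TPM in Ly6d-low and 132 and 149.8 TPM in Ly6d-high cells (2.37 ± 0.15, limma adjusted p = 0.000154), and at 60.1 and 53.5 CPM in WT against 64.8 and 57.9 CPM with overexpression. On recovered reads edgeR gave 2.12 ± 0.11 for Serping1 (adjusted p = 6.8e-05). Clusterin, Clu, which binds the terminal complex, was at 5965 and 6012 TPM in Ly6d-low and 12170 and 12228 TPM in Ly6d-high cells (1.03 ± 0.07, limma adjusted p = 0.000166), a difference that edgeR on recovered reads put at 0.74 ± 0.10 (adjusted p = 0.00493). It was at 2759 and 2592 CPM in WT and 2125 and 2172 CPM with overexpression, a fall of -0.33 ± 0.06 (edgeR adjusted p = 0.0105). Clu lost its first call with TMM factors (adjusted p = 0.0618) and with no filter (adjusted p = 0.0529), and its second without overexpression replicate 1 (adjusted p = 0.062). The soluble regulator gene Cfhr2 was lower in Ly6d-high cells, at 16.97 and 15.2 TPM against 46.6 and 40.9 TPM (-1.39 ± 0.16, limma adjusted p = 0.00207), and edgeR on recovered reads gave -1.72 ± 0.17 (adjusted p = 0.00107).

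Smaller values marked the other calls between Ly6d-high and Ly6d-low cells. Vitronectin, Vtn, was at 3.69 and 6.15 against 0.652 and 1.10 TPM (limma adjusted p = 0.0119) and Cd59a, which blocks the membrane attack complex, at 4.96 and 8.22 against 1.74 and 1.66 TPM (adjusted p = 0.0136). Cpn1, a subunit of the carboxypeptidase that trims C3a and C5a, was at 5.82 and 5.71 against 2.42 and 2.20 TPM (adjusted p = 0.0166). On recovered reads edgeR called all 3, at 2.14 for Vtn, 1.63 for Cd59a and 1.03 for Cpn1 (adjusted p = 0.016, 0.0199 and 0.0239). With limma all 3 calls were lost with no filter on low values (adjusted p = 0.0970 for Vtn, 0.103 for Cd59a and 0.0971 for Cpn1). Cpn1 lost its call also with DESeq2 on recovered reads (adjusted p = 0.0599) and when either Ly6d-low library was left out (adjusted p = 0.0794 for replicate 1 and 0.127 for replicate 2). With overexpression Vtn fell short of the threshold (-2.56 ± 0.82, edgeR adjusted p = 0.121), which it passed when WT replicate 1 (-3.15, adjusted p = 0.0268) or the second overexpression library (-4.20, adjusted p = 0.00478) was left out, and with no filter on low counts (adjusted p = 0.00263). The membrane regulator gene Cr1l was at 23.3 and 28.6 TPM in Ly6d-high and 23.3 and 24.6 TPM in Ly6d-low cells. C5, encoded by Hc, had 12 counts in 1 overexpression library and 0 or 1 in each of the other libraries.

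**Figure D4:**
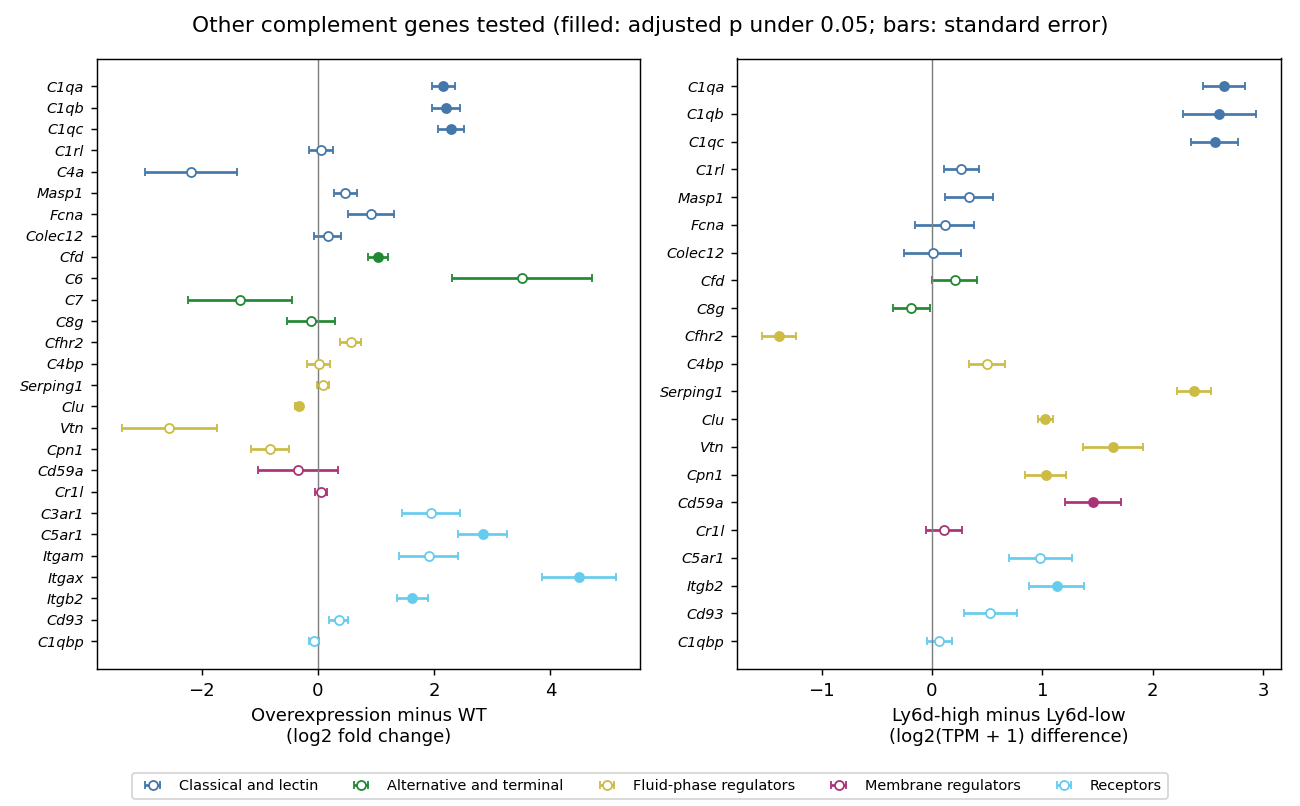
Change of the other complement genes tested, with overexpression (left, 27 genes) and between Ly6d-high and Ly6d-low cells (right, 21 genes); points are log2 values, bars standard errors, colours roles, and filled points passed an adjusted p of 0.05. The C1q genes lie above 2 in both panels, and Serping1 is at 0.09 on the left and 2.37 on the right.

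Genes whose pattern over the 8 libraries was nearest to that of C3, by Euclidean distance of centred log2 values among 6425 candidates, were Rgs2 (0.488), Gas6 (0.683) and Rnf130 (0.904). Gas6, a ligand of TAM receptors, was at 101 ± 15.5 CPM in WT, 89.3 ± 3.07 CPM with overexpression, 188 ± 19.5 TPM in Ly6d-high and 24.7 ± 1.44 TPM in Ly6d-low cells (SD, n = 2 each). The nearest to Cfb were Exoc3 (0.124), Rbbp8 (0.125) and Zfp664 (0.129), and the nearest to Cd55 were Cyp4v3 (0.081), Tmem94 (0.085) and Cox15 (0.086). Patterns with little change, such as that of Cd55, have near neighbours at shorter distances than that of C3.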

How the data were processed

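Of the 2 deposited tables, one gives counts, not normalized, for WT and overexpression cells. The other gives TPM for Ly6d-high and Ly6d-low cells, which the authors computed over the listed gene length. The submitters' processing notes name DESeq2, featureCounts, HISAT2 and fastp, give no versions and state the build as mm9, but the tables' coordinates for all 9 members equal those of GENCODE M21 on GRCm38, which is the build named here. Columns were assigned by name, and 2 count columns that matched no label were not used. For counts, edgeR's quasi-likelihood test (version 4.0.16, R 4.3.3) followed filterByExpr and TMM, with standard errors from the F statistic. For TPM, limma-trend (limma 3.58.1) ran on log2(TPM + 1) of genes that reached 1 TPM in 2 or more of the 4 libraries, a scale that understates changes of low genes. The adjusted p (Benjamini-Hochberg over all genes tested, two-sided) had to lie under 0.05. TPM times length gave whole reads (100% of 85643 values within 0.1 reads), and these were tested with edgeR and DESeq2 1.42.0 as alternatives. On simulated data the TPM test called more unchanged genes than its threshold allows, and the report gives edgeR on recovered reads beside the complement genes it calls. CPM used library totals, and RPKM the listed length. Each low-value filter, normalization, pseudocount, tool and library was varied in turn.

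The members and all gene lists were chosen with earlier results of these data known. The text names the 9 members, every other complement gene past the threshold in either comparison, a fixed set (C4a, C1rb, C1s2, Cd55b, Cd59a, Cr1l, Serping1, Clu and Hc; 1 further gene is not reported here and is in no count of complement genes), and the 3 nearest patterns to C3, Cfb and Cd55 among genes with a mean of at least 10 in both tables. Overexpression replicates are numbered by the ends of their column names only.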

Additional observations from a re-analysis of the deposited data

How the results depend on the processing

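With 2 libraries a group, small changes of the members with few counts (C2, Cfp, Cfb) were not detectable. In overexpression against WT, 656 genes passed the threshold, 1187 with no filter on low counts, and 565 to 1584 when 1 library was left out. No member passed under any of the 7 alternatives, and the other complement genes numbered 8 to 12. Near 0, C3 (-0.010) was at 0.009 without TMM and from -0.094 to 0.068 with a library left out, C1ra from -0.057 to 0.071 and Cr1l from -0.082 to 0.168. In Ly6d-high against Ly6d-low, 1435 genes passed, 531 with no filter on low values, where more genes were tested, 948 with TMM factors and 931 to 6710 with a library left out. Members past the threshold numbered 4 and other complement genes 4 with no filter, and both counts varied with a library left out. Changes turned negative with TMM factors, edgeR and DESeq2 on reads for Cd55 (-0.068, -0.088, -0.102), Cfd (-0.045, -0.068, -0.080) and Cr1l (-0.16, -0.183, -0.197). With a library left out, Cfd ran from -0.001 to 0.410 and Cr1l from -0.034 to 0.248. The cause was not tested. With the replicate number as a block, 4179 genes, 7 members and 12 other complement genes passed, but the numbers are not stated to mark a shared animal, and same-numbered deviations correlated at 0.068 over 14625 genes. No paired analysis was possible for overexpression because its columns matched no numbered sorted sample.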
